A study of Mus musculus with 12 samples.

Results

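Sertoli cells that already express Amh were taken from droplet-based single-cell RNA profiles of gonads of mouse embryos at day 12. A cell was a member when it had at least 2 unique molecular identifiers (UMIs, each marking 1 captured RNA molecule) of Sox9, at least 2 of Amh, and fewer than 10 in all of the germ cell genes Dppa5a, Pou5f1, Ddx4 and Dazl. It also had to pass the cell filter of at least 1000 detected genes and at most 10% mitochondrial UMIs. Of 83513 retained cells in 12 libraries, 2116 were members, and 1964 of them (92.8%) came from the XY WT gonads. The 12 libraries cover XX and XY gonads of 3 genotypes, with 2 libraries in each of the 6 groups. WT is wild type, and -KTS KO and +KTS KO are homozygous losses of 1 splice variant of Wt1, which differ by whether the zinc finger protein WT1 carries the amino acids KTS between its last zinc fingers. The +KTS KO is a model of Frasier syndrome. All lines were kept on a mixed B6CBAF1/JRj background, embryos had 23 ± 3 tail somites, and both gonads of an embryo were dissected free of the mesonephros, with several embryos pooled in each -KTS KO library. Gonads were dissociated with trypsin-EDTA.

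Sertoli cells are the supporting cells of the testis. Their differentiation starts when SRY, encoded on the Y chromosome, raises Sox9 in the supporting cell precursors of the XY gonad, and the differentiating cells enclose germ cells in testis cords. Amh, whose product makes the Müllerian ducts regress, is a direct target of SOX9 together with NR5A1, GATA4 and WT1, and it comes on after Sox9. In the XX gonad the same precursors become pre-granulosa cells, which express Foxl2 and Fst and use RSPO1 and WNT4 signalling.

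In XY WT, 1305 of 9032 retained cells of replicate 1 were members (14.4%, 95% Wilson interval 13.7 to 15.2%) and 659 of 6626 of replicate 2 (9.95%, 9.25 to 10.7%), so the 2 libraries differed by more than their counting error. XY +KTS KO held 138 of 7612 cells (1.81%, 1.54 to 2.14%) in replicate 1 and 10 of 8159 (0.123%, 0.0666 to 0.225%) in replicate 2. XX +KTS KO held 3 cells and 1 cell. No cell qualified in XX WT, in XY -KTS KO or in XX -KTS KO, for which a limit of 3 counts of the total allows a share of up to 0.0594% in any of these 6 libraries (the 95% Wilson interval drawn in the plot of shares reaches up to 0.0760%). The intervals and limits cover counting error only. The gate reads Sox9 and Amh themselves, so these numbers describe the libraries and were not tested.

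**Figure D1:**
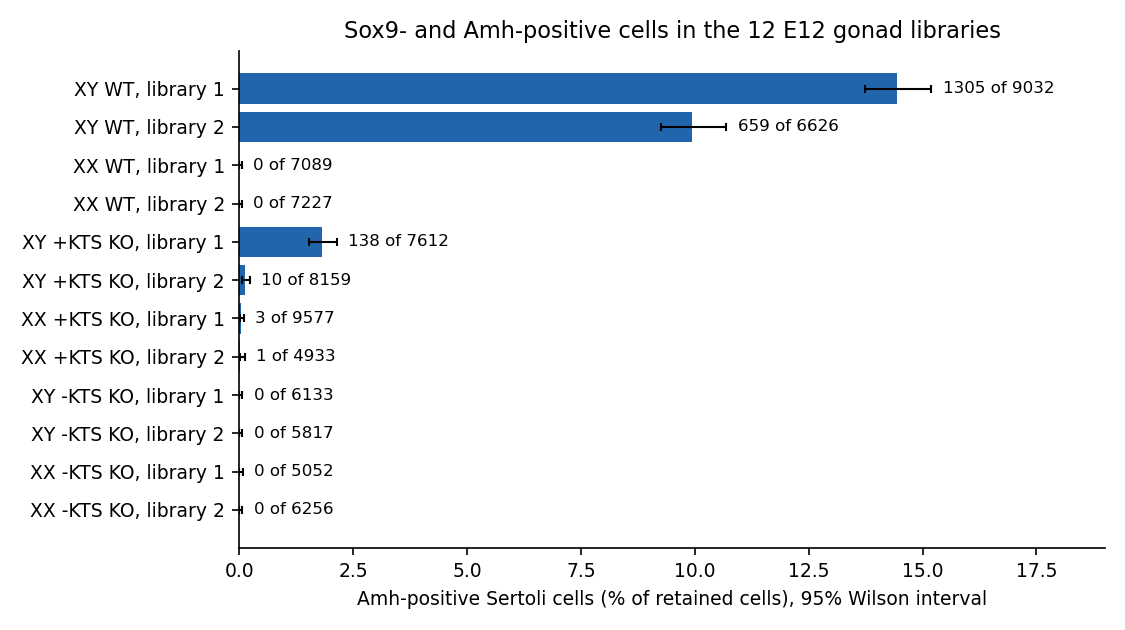
Share of retained cells that had at least 2 Sox9 and 2 Amh UMIs and fewer than 10 germ gene UMIs in each of the 12 libraries, with 95% Wilson intervals as bars (counting error only) and the numbers of cells beside them. The XY WT libraries stand at 14.4% and 9.95%, XY +KTS KO at 1.81% and 0.123%, and 6 libraries hold none.

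The members were slightly deeper than the other cells. Their median was 11700 UMIs in XY WT replicate 1 and 15209 in replicate 2, against 10992 and 13704 for the other cells of the same libraries. Library totals ran from 108111924 to 147968666 UMIs. After thinning to 5000 UMIs, with cells below that depth left out, 572 of 8723 cells (6.56%) and 206 of 6367 (3.24%) in XY WT met the gate. The germ gene limit was then read on the thinned UMIs. The endothelial-like cells of these libraries (445 and 310, at medians of 14921 and 17100.5 UMIs), a type that should lack both genes, had at least 3 endothelial markers detected. They were drawn from cells outside the gate, so they cannot show how often such cells meet it. Among them 6 and 1 had at least 2 Amh UMIs and 20 and 24 at least 2 of Sox9. Members had 2 to 68 Amh UMIs with a median of 7 in replicate 1, and 2 to 59 with a median of 4 in replicate 2. The order was the reverse for Sox9, with medians of 5 and 9. They held 74.7% and 80.1% of all Amh UMIs of the retained XY WT cells. Among members 14.2% and 10.2% were among the cells with the highest doublet scores, against 8.05% and 8.03% of the other cells. Between 6 and 46 barcodes occurred in both libraries of any pair, and the barcodes of 43 members occurred in another library, though in no case in the members of both XY WT libraries.

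Among XY WT cells with 2 or more Sox9 UMIs, those with exactly 1 Amh UMI, just outside the gate, numbered 231 and 274, and those with exactly 2, just inside, 177 and 160. Dhh, encoding Desert hedgehog, the Sertoli signal to the interstitium, stood at 36.1 and 35.9 CPM (a gene's UMIs scaled to a total of 1000000) in the cells with no Amh UMI, at 103 and 97.3 with 1, at 165 and 128 with 2, and at 241 and 213 with more than 10. Aard, a gene of little known function that marks early Sertoli cells, went from 392 and 451 without Amh to 1162 and 1133 with 1 UMI, 1397 and 1400 with 2, and 1730 and 1602 above 10. Ptgds, the prostaglandin D2 synthase that helps keep Sox9 active, went from 142 and 88.5 through 528 and 275 to 697 and 357, and reached 1224 and 622. Fgf9, the growth factor that sustains Sox9 against WNT4, stood at 55.6 and 76.1 without Amh, at 111 and 137 with 1 UMI, and at 89.3 and 149 above 10. In the other direction Tcf21, a factor of interstitial progenitors, stood at 395 and 154 without Amh and at 98.7 and 63.9 with 2 UMIs. Along the Sox9 side of the gate, the 171 and 28 XY WT cells with 1 Sox9 UMI and at least 2 of Amh had Dhh at 273 and 117 and Aard at 1892 and 1009, and members with exactly 2 Sox9 UMIs had Dhh at 219.7 and 202 and Aard at 1776 and 1504.

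**Figure D2:**
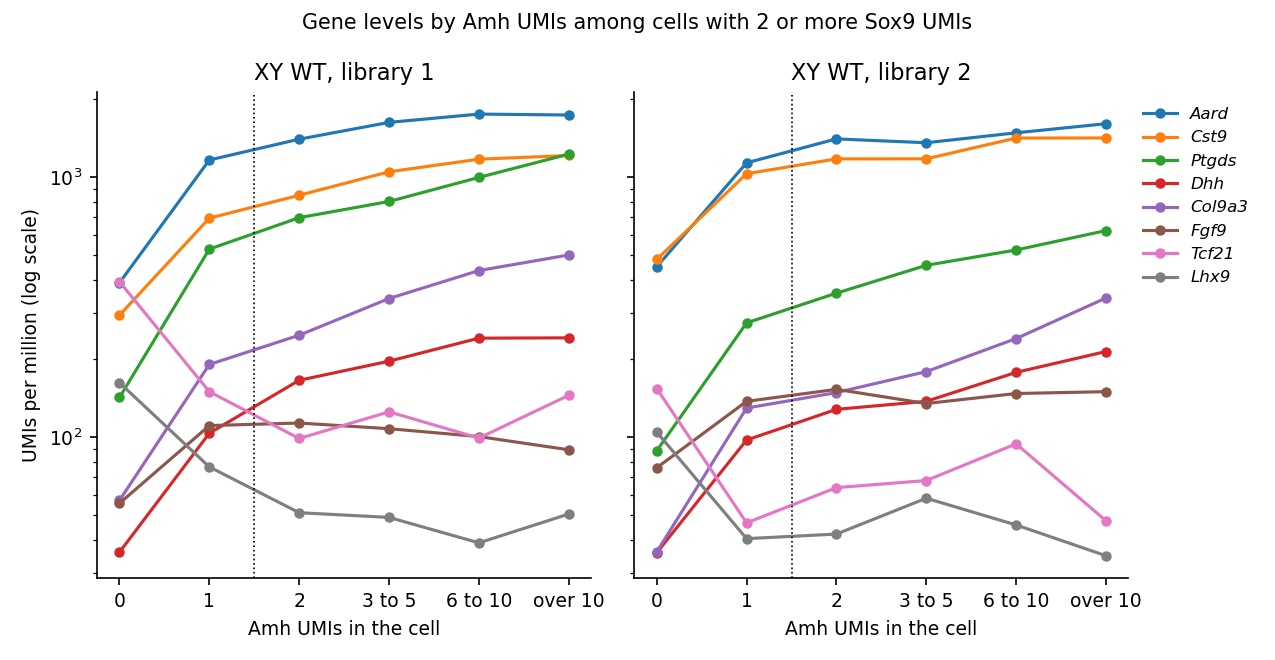
CPM (log scale) of 8 genes in XY WT cells with at least 2 Sox9 UMIs, grouped by their number of Amh UMIs, in replicate 1 (left) and replicate 2 (right). The dotted line is the gate. From no Amh UMI to 2, Aard goes from 392 to 1397 and from 451 to 1400 in the 2 libraries and Dhh from 36.1 to 165 and from 35.9 to 128, Dhh, Ptgds and Col9a3 are higher again above 10 UMIs, and Tcf21 lies lower from 1 Amh UMI on.

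The label of Sertoli cells was set beside 3 markers that the gate does not read. These markers were chosen with earlier results of these data known, so they describe the members and are not an independent check. Dhh, Aard and Cst9, a cystatin of fetal Sertoli cells, were detected together in 1011 of the 1305 members of XY WT replicate 1 (77.5%) and in 510 of 659 in replicate 2 (77.4%), and 4 and 0 members lacked all 3. Singly, Dhh was detected in 86.3% and 82.5% of members, against 4.27% and 2.58% of the endothelial-like cells, Aard in 99.4% and 98.9% against 15.3% and 15.2%, and Cst9 in 88.4% and 93.9% against 7.64% and 11.3%. Thinned to 5000 UMIs, Dhh was detected in 63.9% and 49.7% of members against 1.64% and 0.667%, and Aard in 96.4% and 93.9% against 6.54% and 6.33%. Foxl2, the pre-granulosa factor, had a UMI in 9 and 5 members (0.690% and 0.759%). Sry stood at 0.317 and 0.554 CPM in members and was seen in 6 and 7 of them. It was as scarce in the other XY WT cells, at 0.210 and 0.556, and stood at 0.888 and 1.78 in those with Sox9 and no Amh.

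Because genes chose the cells, the genes that distinguish members from the other cells of XY WT are given as a description with no test. UMIs were summed over members and over all other retained cells of each library, and a gene was counted as raised or lower when it differed at least 2-fold in both libraries, with 5 CPM added to each value. Of 5646 genes outside the rule with 20 CPM or more in the higher sum of both libraries, 311 (5.51%) were raised and 155 (2.75%) were lower. Ptgds led, at 1001 and 481 CPM in members against 78.9 and 35.1 in the other cells, an 11.98-fold and 12.1-fold ratio. Col9a3, a chain of type IX collagen, stood at 415 and 216 against 33.1 and 15.1. Both Col9a3 and Ptgds were about 2-fold higher in the members of replicate 1 than in those of replicate 2, with the same ratio to the other cells in each.

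The next genes were Mt3, a metallothionein, at 252 and 190 against 21.4 and 15.6, and Dhh at 220 and 158 against 18.2 and 12.7 (9.71-fold and 9.23-fold). Aard stood at 1667 and 1438 against 169 and 160. Tesc, the calcium-binding protein tescalcin, stood at 884 and 614 against 91.3 and 71.2, and Cst9 at 1116 and 1273 against 106 and 170. The remaining genes of the leading 20 fell into a few families. Gstm2, Gstm6 and Gstm7 encode glutathione S-transferases that lie close together on chromosome 3. They have similar sequences, so their reads may be shared, and were 6.12-fold to 8.22-fold higher. Col9a2 and Col27a1, further collagen chains, and Fbln2, the matrix protein fibulin 2, were 5.98-fold to 7.52-fold higher. Serpine2, a protease inhibitor, Cst8, a second cystatin, and Gatm, which makes the creatine precursor guanidinoacetate, stood beside Dusp15, Kcnk2, Mall and Fgf9. Fgf9 was at 99.4 and 144 in members against 12.8 and 20.4 elsewhere.

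**Figure D3:**
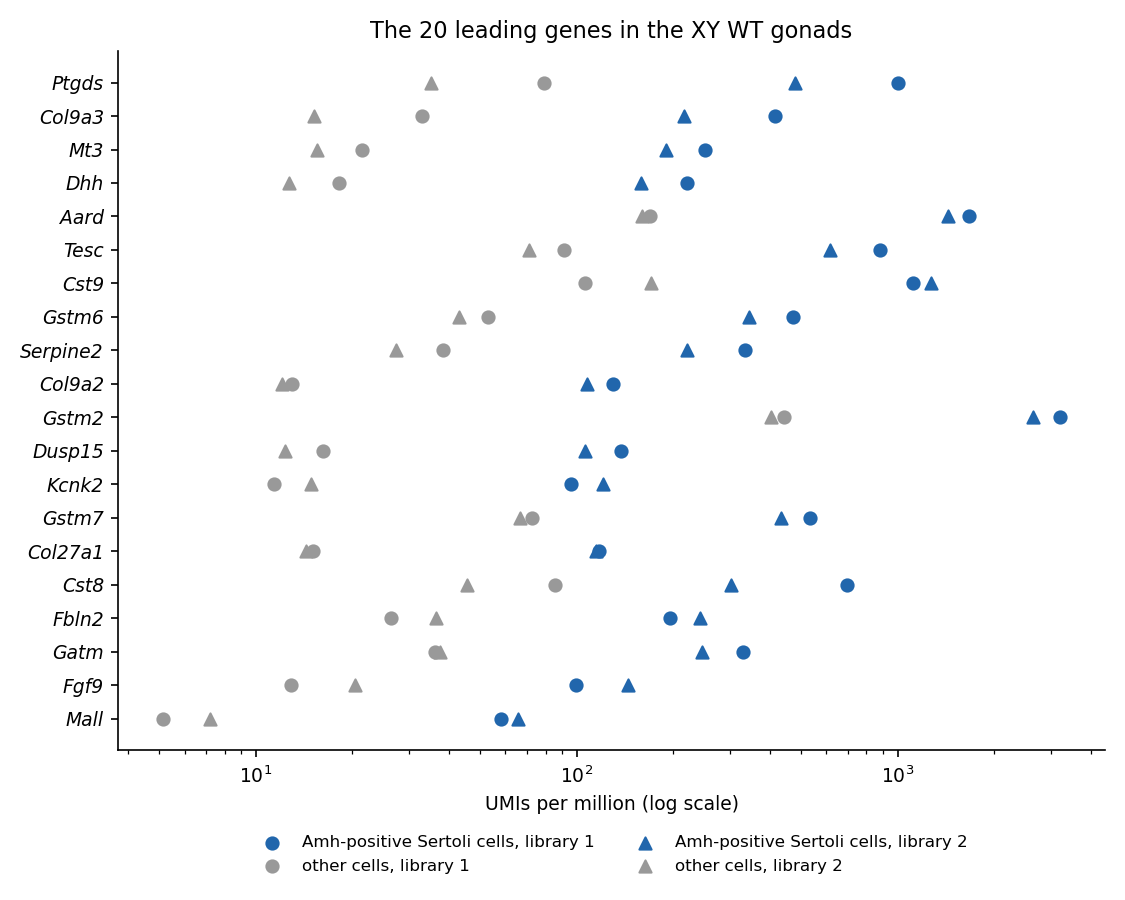
CPM (log scale) of the 20 genes with the largest ratio of members to other cells of XY WT, ranked by the smaller ratio of the 2 libraries. Circles are replicate 1 and triangles replicate 2, members are blue and the other cells grey; in every row both member values lie above both values of the other cells, from 11.98-fold and 12.1-fold for Ptgds to 6.21-fold and 5.78-fold for Mall.

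The promoters of 3 of these genes are shown because their levels parted in the gated cells of 1 XY +KTS KO library described further on, where Ptgds stood near its wild-type level, Dhh was several-fold lower and Cst9 was over 50-fold lower. The RefSeq windows of build GRCm38.p6 run from 250 bases before to 50 after the start of the gene, written 5′ to 3′ on the gene's strand. Dhh lies on the minus strand at chr15:98898491-98898790, Ptgds on the minus strand at chr2:25469700-25469999 and Cst9 on the plus strand at chr2:148834897-148835196. Capitals mark ACAAAG or ACAATG, cores bound by SOX proteins, AAGGTC, a core bound by NR5A1, and TGATAA, a core bound by GATA factors, on either strand.
Dhh: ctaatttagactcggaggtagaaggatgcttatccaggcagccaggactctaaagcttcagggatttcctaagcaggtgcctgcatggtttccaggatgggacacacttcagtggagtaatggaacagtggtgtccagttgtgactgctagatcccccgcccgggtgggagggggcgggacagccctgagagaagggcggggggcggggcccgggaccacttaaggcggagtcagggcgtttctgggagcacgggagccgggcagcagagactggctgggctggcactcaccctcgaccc
Ptgds: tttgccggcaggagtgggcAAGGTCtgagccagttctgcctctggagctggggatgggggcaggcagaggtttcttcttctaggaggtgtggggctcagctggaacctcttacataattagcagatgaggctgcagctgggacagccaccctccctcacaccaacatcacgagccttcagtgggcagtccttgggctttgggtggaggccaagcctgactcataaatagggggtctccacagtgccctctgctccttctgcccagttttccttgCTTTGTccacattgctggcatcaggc
Cst9: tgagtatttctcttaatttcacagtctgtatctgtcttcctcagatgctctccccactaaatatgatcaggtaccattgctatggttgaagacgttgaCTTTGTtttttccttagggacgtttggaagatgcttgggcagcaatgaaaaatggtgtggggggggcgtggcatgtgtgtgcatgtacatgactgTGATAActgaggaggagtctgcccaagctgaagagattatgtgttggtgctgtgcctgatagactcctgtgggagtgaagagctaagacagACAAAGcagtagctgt
ACAAAG or its complement lay once in the Ptgds window and at 2 places in that of Cst9, AAGGTC once in that of Ptgds, TGATAA once in that of Cst9, and none of the 4 in that of Dhh. No marked matches overlap. Of the 20 leading genes 17 had such a window, some with several, 23 windows in all. ACAAAG was in 8 of these 23 against 18.7% of all 32851 windows, ACAATG in 2 against 12.6%, AAGGTC in 4 against 12.3% and TGATAA in 3 against 9.05%. A match is a run of letters, not a bound site. The leading genes Aard, Col9a3 and Dusp15 had no such window, and neither had Sox9 and Amh.

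By the gene lists, the 3 Sertoli markers outside the gate were all raised over the other XY WT cells, and so were 13 of 20 other early Sertoli genes, with none lower, of which 15 passed the filter on low values. The median log2 ratio of those 15 was 2.55 and 2.13, against -0.05 and -0.03 over all genes. Of 16 regulators of testis determination and the early gonad, a list of transcription factors that also holds Gadd45g, 11 passed this filter. Of these 4 were raised and 1 was lower, beside 5.51% and 2.75% of all genes that passed. Sox10, a relative of Sox9, stood at 22.4 and 26.1 against 2.15 and 2.92, and Sox8 at 15.6 and 18.0 against 1.64 and 2.30, below the filter in both libraries. Nr5a1, the steroidogenic factor that works with SOX9, stood at 74.2 and 104 against 21.9 and 32.9, and Gata4 at 133 and 167 against 54.9 and 71.8. Gadd45g, which acts upstream of Sry, stood at 674 and 790 against 238 and 333. The lower one was Lhx9, a factor of the early gonadal epithelium, at 47.5 in both against 165 and 122. Wt1 itself was at 195 and 259 against 104 and 151, and 3′ counts do not tell its +KTS and -KTS forms apart.

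Of 25 ligands 13 passed the filter on low values. Among these 5 were raised and 1 was lower, beside 5.51% and 2.75% of all genes that passed, shares that also bear on the receptor and cord lists. Besides Dhh and Fgf9 these were Kitl, the KIT ligand, at 208 and 300 against 55.8 and 142, Wnt6 at 417 and 311 against 119 and 152, and Inhbb, the beta B subunit of inhibin and activin, at 69.2 and 89.2 against 20.3 and 35.2. Wnt5a, a ligand of the interstitium, was lower, at 11.95 and 9.33 against 39.1 and 28.1. Of 20 receptors and pathway targets 8 passed the filter, none was raised and 1 was lower. Amhr2, the receptor for AMH, stood at 203 and 228 in members against 128 and 155. Of 21 cord and basement membrane genes 14 passed it. Of these 3 were raised, with Col18a1, which gives endostatin, at 571 and 541 against 85.7 and 94.4, and Krt8 and Cdh2 at lower ratios, and 3 were lower. Of 52 genes of the G2 and M phases 5 were lower and none raised, and of 40 S phase genes 1 was lower, where 2.75% of all genes that passed the filter were lower.

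The most reduced genes included Dppa3, Dppa4, L1td1, Ifitm3 and Sox2, which are known from germ cells, and the gate's germ gene limit keeps germ cells out. So the members were also set against only the other somatic-like cells of the same libraries (4414 and 3656 cells), a comparator list chosen with its values known. These were cells outside the gate, under the same germ gene limit, with at least 2 of Wt1, Gata4, Nr5a1 and Lhx9 detected. They had fewer than 3 endothelial and fewer than 3 macrophage markers detected. Against those, 190 of 5553 genes (3.42%) were raised and 111 (2.00%) were lower, and 15 of the 20 leading genes were the same. The lower genes then included several of interstitial and coelomic cells. Tcf21 was at 123 and 69.6 against 620 and 311, Upk3b, a mesothelial gene, at 12.4 and 7.99 against 82.2 and 49.4, and Lhx9 at 47.5 in both against 277 and 212. Lhx9 was among the genes that chose the somatic-like cells, so its difference is set in part by that choice. Ptn, Dcn, Dkk1 and Ednra were lower as well. Of the 10 interstitial progenitor markers 6 were lower than in the somatic-like cells and of the 6 coelomic epithelium markers 3, Lhx9 among them, with none of either list raised.

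Markers of other cells were present in the members. The 8 endothelial markers summed to 111 and 104 CPM, against 51.0 and 56.2 in the other somatic-like cells and 2621 and 2597 in the endothelial-like cells, and to 49.8 and 66.6 in members without the cells of highest doublet score. The same markers chose both comparators, with fewer than 3 detected in somatic-like and at least 3 in endothelial-like cells. Members were not filtered on them, so these differences are set in part by that choice. Tie1 stood at 0.687 and 0.870 and Cdh5 at 5.13 and 4.27. The 9 erythroid genes summed to 3148 and 1559, falling to 746 and 794 without those cells, and the 8 macrophage markers to 0.740 and 1.11. The part of doublets and free RNA in these levels was not tested.

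The members were also set against the XY WT cells with 2 or more Sox9 UMIs and no Amh, 697 and 938 cells, again as a description because the gate splits them. Both sets were gated on the same minimum of Sox9, which stood at 415 and 535 in members and 385 and 518 in the others. Of 5480 genes, 69 (1.26%) were raised in members and 39 (0.712%) were lower, and 67 of the 69 were also raised over the other cells (97.1% of these, 21.5% of the 311). Col9a3 led at 415 and 216 against 57.0 and 36.2, a ratio of 6.77 and 5.37. Ptgds, Mt3 and Dhh followed, then Col2a1, the type II collagen chain, at 49.9 and 30.6 against 8.43 and 6.01. Of the genes lower in members, Sprr2d was at 1.27 and 15.9 against 34.4 and 98.9 and Etv2, an endothelial factor, at 13.0 and 2.85 against 55.0 and 25.6. Dcn and Dkk1 were also lower, as were Dclk1, Lor and Dock4.

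Split at the median Amh level of each library, into 653 and 652 cells in replicate 1 and 330 and 329 in replicate 2, no gene of 5276 was 2-fold higher in the high-Amh group in both libraries (0%), and 21 (0.398%) were 2-fold lower. The largest ratios upward were those of Col9a3, at 546 against 315 in replicate 1 and 293 against 157 in replicate 2, and Ptgds, at 1355 against 730 and 623 against 374. Mt3, Col9a2 and Creld2, an endoplasmic reticulum chaperone, followed at 1.61-fold to 1.78-fold. Higher in the low-Amh group were Tcf21 (184 against 43.3 and 107 against 20.3), Gng11, Lhx9 and Plvap, an endothelial gene. Cells of high doublet score made up 22.7% of the low-Amh group and 5.67% of the high-Amh group in replicate 1, and 16.1% and 4.24% in replicate 2. Without them 1 gene of 5247 was 2-fold lower in the high-Amh group and none higher.

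Between the members of the 2 XY WT libraries, 39 of 3040 genes with 50 CPM or more (1.28%) differed at least 2-fold. Replicate 1 was higher for Slc24a5 (95.5 against 1.19), BC004004, Hsd11b2, Ren1 and the Sertoli defensin Defb19 (372 against 112), and replicate 2 for Gm10260, Gm35533, Pglyrp1, Gm47283 and Pfn1 (477 against 116). For all 10 of these the other cells of the same libraries differed in the same direction, as with Pfn1 at 499 against 156.

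To set the members against the other fate of the same precursors, their UMI sums per library were compared with those of pre-granulosa cells, gated by at least 1 Foxl2 and at least 2 Fst UMIs. XX WT gave 810 and 1055 such cells, XY +KTS KO 632 and 112, and XX +KTS KO 241 and 44. The XX +KTS KO sums were not compared with the members and entered only the fit that all 8 sums share. Sums were tested with the quasi-likelihood method of edgeR over 8 sums of cells with Benjamini-Hochberg adjustment at 0.05, the genes of the gates were left out, and values from here on are scaled by TMM. Both contrasts use the same 2 sums of members, and the p-values measure the spread between libraries of gated cells. Each side was gated on genes of its own fate, which favours a difference in other genes expressed along with them. The Sertoli and pre-granulosa lists were also chosen with earlier results of these data known. Their calls below therefore describe the gated cells and are not independent support for the 2 labels. Against XX WT, 2104 of 14152 genes (14.9%) were higher in the members and 2167 (15.3%) lower, together 30.2%. With 1 replicate of both groups left out the counts fell to 582 higher and 488 lower (without replicate 1) and to 859 and 792 (without replicate 2). This contrast also differs in the sex chromosomes: on the autosomes 2031 were higher and 2072 lower of 13653, Xist was at 0 and 0.250 in the members against 745 and 852, and Eif2s3y and Ddx3y were listed at 0 in both XX libraries.

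The Sertoli side of this contrast held large differences. Dhh was at 248 and 167 in the members against 0.920 and 0.696 in the XX pre-granulosa cells (log2 difference 8.03 ± 0.304 SE, adjusted p = 7.96e-07 by edgeR). Col9a3 was at 467 and 227 against 0.552 and 0.597, and Fgf9 at 112 and 152 against 0.276 and 0.945 (log2 difference 7.55 ± 0.401). Sox10 had no UMI in the XX pre-granulosa cells and stood at 25.3 and 27.5 in the members, which was at least 244-fold higher against a limit of 3 counts over both XX libraries, and Gal3st1, a sulfotransferase, was at least 235-fold higher on the same basis, though DESeq2 did not call it (adjusted p = 0.0817). Sox8 was at 17.6 and 18.9 against 0.276 and 0.199. All 3 Sertoli markers outside the gate and 18 of 20 other early Sertoli genes were higher, with none lower and medians of 5.398 and 4.53 on the log2 scale against -0.03 over all genes. Rhox8 and Cldn11 were the 2 that missed the threshold, at 95.6 and 135 against 60.9 and 73.2 and at 10.5 and 5.08 against 5.43 and 6.02. Rhox8 passed with no filter on low counts (adjusted p = 0.00103 by edgeR) and in the fit on only the 4 sums compared. The largest rises by the naming rule on autosomes were completed by Col9a1, Siglece, Bricd5 and Lncbate6.

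Nr5a1 was higher in the members, at 83.6 and 110 against 37.6 and 40.9 (log2 difference 1.30 ± 0.212, adjusted p = 0.00132 by edgeR). Gata4 had a log2 difference of 0.38 ± 0.176 (adjusted p = 0.127 by edgeR), Wt1 of -0.39 ± 0.197 (0.165), Gadd45g of -0.47 ± 0.307 (0.278) and Dmrt1 of 1.12 ± 0.432 (0.0764), none of which passed, though Dmrt1 did under 3 of 10 alternatives. Lhx9 and Emx2, factors of the early gonad, were lower in the members, by log2 differences of -2.32 ± 0.203 and -2.78 ± 0.238.

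Of 24 ligands tested 8 were higher in the members and 6 lower, beside 14.9% and 15.3% of all genes. Gdnf, the glial-derived factor that Sertoli cells later supply to germ cells, was at 22.2 and 15.6 against 0.0920 and 0.0994, and Pdgfa at 253 and 211 against 75.6 and 64.6. Wnt4 was at 43.8 and 57.8 in the members against 789 and 759, Rspo1 at 21.6 and 30.3 against 357 and 259, and Bmp2 at 3.04 and 3.16 against 58.5 and 52.4. Kitl, raised over the other XY WT cells, was lower than in the XX pre-granulosa cells, at 234 and 315 against 556 and 657. Of 19 receptors and pathway targets 6 were higher and 5 lower, beside the same shares. Ptch1, the hedgehog receptor and target, was at 62.7 and 57.6 against 12.3 and 13.8, while Lef1 and Axin2, targets of WNT signalling, were at 3.04 and 5.16 against 56.1 and 63.1 and at 1.43 and 2.00 against 16.6 and 20.7. Amhr2 was lower in the members at 229 and 240 against 440 and 391 (log2 difference -0.83 ± 0.180, adjusted p = 0.00638 by edgeR), and without replicate 1 or 2 of both groups this did not pass (0.244 and 0.097 by edgeR). Without replicate 1 Pdgfa (0.0768) and Kitl (0.0651) did not pass either. Of the 10 pre-granulosa markers outside the gate 9 were lower and none higher, with a median of -3.54 and Irx3 the farthest, at 3.69 and 3.41 against 123 and 111.

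Of 52 genes of the G2 and M phases 46 were higher in the members than in the XX pre-granulosa cells and none lower, beside 14.9% and 15.3% of all genes (median 2.20 on the log2 scale), and of 40 S phase genes 30 were higher and none lower (median 1.07). The cyclin-dependent kinase inhibitors Cdkn1c, Cdkn1b and Cdkn1a went the other way. Cdkn1c was at 543 and 580 against 4002 and 3411, Cdkn1b at 23.6 and 25.6 against 281 and 277, and Cdkn1a at 6.43 and 11.9 against 403 and 134, while the cyclin Ccnd1 was higher, at 97.3 and 103 against 22.5 and 18.2. Against the other cells of their own gonad the same G2 and M phase genes had a median of -0.62 and -0.81.

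Of 21 cord and basement membrane genes 5 were higher and 1 lower, a share near the 30.2% called over all genes, with Col18a1 at 643 and 570 against 49.4 and 70.2 and the laminin receptor Itga6 lower, at 37.8 and 61.4 against 155 and 164. Cyp26b1, which degrades the retinoic acid that would start meiosis, was at 96.6 and 110 against 11.9 and 12.9. Endothelial markers were among the genes higher in the members, 3 of 8, with Plvap at 14.7 and 15.8 against 7.54 and 3.53 and the whole list at 125 and 110 against 72.3 and 47.0. Plvap did not pass without replicate 1 or 2 (adjusted p = 0.0927 and 0.439 by edgeR), nor did Emcn (0.305 and 0.345). Of 10 interstitial progenitor markers 4 were higher and 2 lower, with Tcf21 at 139 and 73.3 against 19.4 and 10.9 (log2 difference 2.82 ± 0.356, adjusted p = 0.000302 by edgeR). No erythroid gene of 9 passed in either direction. The largest falls on autosomes were those of Chrm4, Stum, Tmem174, Wfdc1, Slitrk1, Csgalnact1, Tmem171 and Slc7a11, between -7.54 and -5.54 on the log2 scale.

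**Figure D4:**
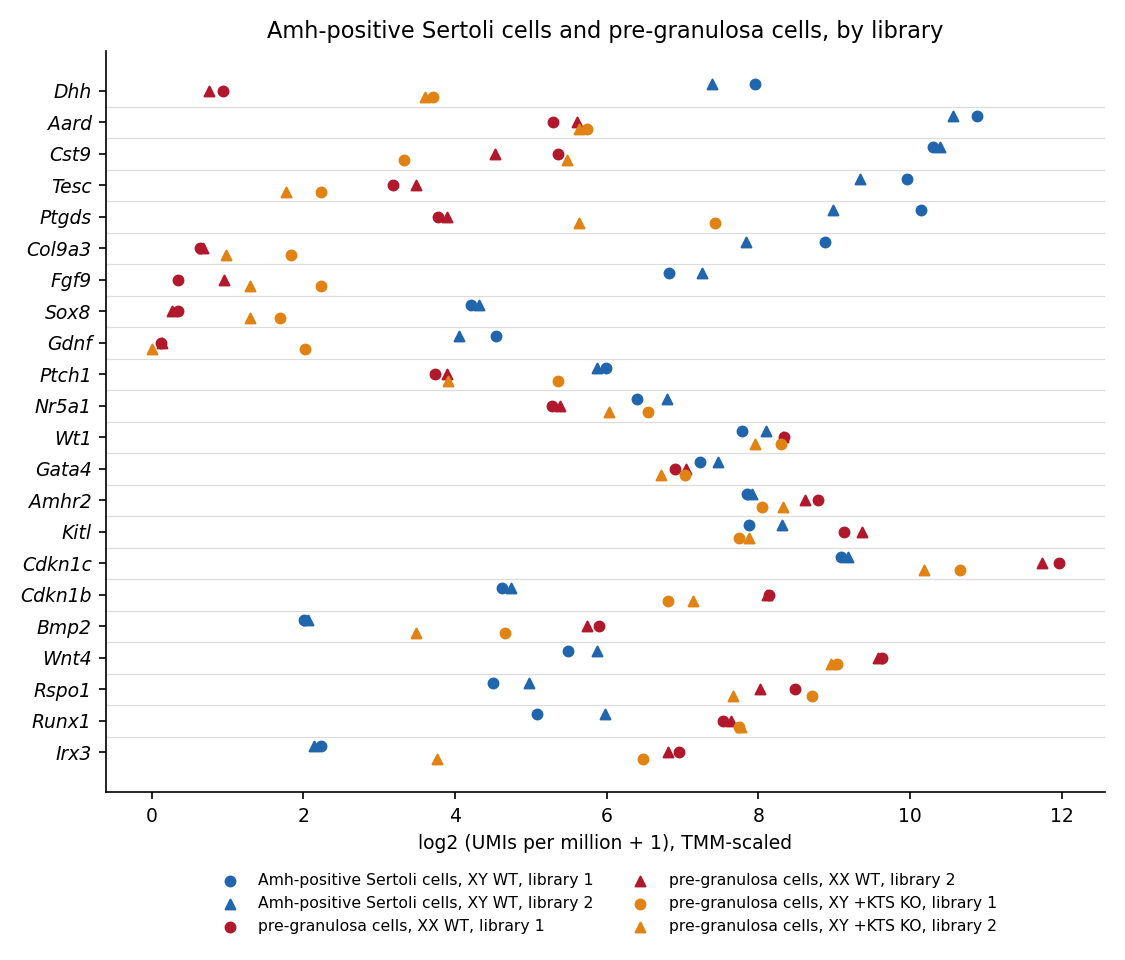
log2 of TMM-scaled CPM plus 1 for 22 genes in the summed members of XY WT (blue) and the summed pre-granulosa cells of XX WT (red) and XY +KTS KO (orange), with circles for replicate 1 and triangles for replicate 2. Dhh to Gdnf lie to the right in the members, Wt1 and Gata4 lie close together, and Cdkn1c to Irx3 lie to the left; the 2 XY +KTS KO libraries spread widely for Irx3, at 88.5 and 12.6.

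XY +KTS KO gives pre-granulosa cells with the members' own sex chromosomes. They differ from the members in genotype as well as in cell type, and this contrast cannot tell these apart. Of the 632 such cells of replicate 1, 27 also met the gate of Sox9 and Amh. Against the XY +KTS KO pre-granulosa cells, 2064 genes (14.6%) were higher in the members and 2061 (14.6%) lower, together 29.1%. With only those that had 0 Amh and 0 Sox9 UMIs, 1915 were higher and 1878 lower. Without replicate 1 of both groups these were 915 and 812, and without replicate 2 they were 2620 and 2367. Tesc was at 996 and 646 against 3.69 and 2.43 (log2 difference 7.92 ± 0.341, adjusted p = 2.94e-06 by edgeR), and Dhh at 248 and 167 against 12.03 and 11.2 (4.14 ± 0.246). Ptgds, at 1127 and 506 against 171 and 48.5, had a smaller difference (2.86 ± 0.565). All 3 Sertoli markers and 19 of 20 other early Sertoli genes were higher (medians 5.06 and 3.63 against -0.07 over all genes), with Rhox8 the exception at 95.6 and 135 against 113 and 46.6. Dmrt1, a factor that later guards the Sertoli fate, was at 27.3 and 32.7 against 0.882 and 7.28 and passed here. Rnase1, Etd, Paqr5 and Sox15 were among the largest rises.

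Of the 10 pre-granulosa markers 8 were lower and none higher in the members than in these cells, beside 14.6% of all genes in each direction, with Wnt4 at 523 and 497 and Rspo1 at 417 and 201 in the pre-granulosa cells. Kitl, at 213 and 235, Amhr2, at 263 and 319, and Nr5a1, at 92.6 and 64.0, did not pass. Cyp11a1, which makes the first step of steroid synthesis, was at 15.1 and 19.6 in the members against 94.4 and 248. Inha, at 154 and 125 against 151 and 390, did not pass, but did without replicate 1 of both groups (adjusted p = 0.000184 by edgeR), as did Nr5a1 (0.045) and Rhox8 (0.0152). Of the G2 and M phase genes 41 of 52 and of the S phase genes 30 of 40 were higher in the members, with none of either lower. Of 16 immediate early genes 6 were lower and none higher, and the pre-granulosa libraries differed, with Fos at 721 and 105 against 74.2 and 52.1 in the members. Without replicate 1 of both groups Fos was no longer called (adjusted p = 0.135 by edgeR), nor were Tcf21 (0.171) and Lhx9 (0.111). The falls that led by the naming rule were Wfdc1, Rsph10b, Gm15543, Plac8, Ryr2, Cdkn1a, Cst12 and Morn1.

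The 138 cells of XY +KTS KO replicate 1 that met the same gate give the last comparison. They were deeper than other cells of that library, with a median of 18329 UMIs against 11038, and summed to 2928724 UMIs. With 10 members in replicate 2 no test across libraries was made, so values from here on are CPM of 1 library without TMM scaling, and the intervals cover counting error only. Sox9 was at 401 (378 to 424) in them against 415 and 535 in the XY WT members, and Amh at 316 against 671 and 345; the gate fixes that both are present. Of 6449 other genes 445 (6.90%) were at least 2-fold higher than in both XY WT libraries and 268 (4.16%) at least 2-fold lower.

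Of the 20 leading genes 14 were at least 2-fold lower than in both XY WT libraries and none higher, with a median log2 ratio of -2.21 and -1.83 against 0.19 and 0.11 over all genes. The 20 were chosen for their high values in these same XY WT members, which favours a lower value elsewhere, so this is a description. The same 20 genes were all above the other cells of their own library, 19 of them by at least 2-fold. Cst9 was at 17.1 (12.7 to 22.5) against 1116 and 1273, Tesc at 38.9 (32.1 to 46.8) against 884 and 614, and Aard at 173 (158 to 189) against 1667 and 1438. Dhh was at 39.6 (32.7 to 47.5) against 220 and 158, beside 36.1 and 35.9 in the XY WT cells with Sox9 and no Amh. The genes near or above the wild-type level were Ptgds, at 998 (962 to 1035) against 1001 and 481, Kcnk2, at 106, and Fbln2, at 306 against 196 and 243, while Mt3, at 151 against 252 and 190, Col9a2 and Col27a1 were below it by less than 2-fold. Spp1, the matrix protein osteopontin, was at 38.2 against 707 and 714. In the other cells of this library Cst9, Tesc and Aard were also lower than in the other cells of XY WT. Those of XY WT include Sertoli-like cells just outside the gate, which raise their levels of these genes. The 231 and 274 with Sox9 and 1 Amh UMI had Cst9 at 694 and 1029, Tesc at 690 and 502 and Aard at 1162 and 1133. Their part in the difference was not tested. In the other cells of the XY +KTS KO library Cst9 was at 3.64 against 106 and 170 and Tesc at 2.93 against 91.3 and 71.2. Aard was at 28.1 against 169 and 160, while Ptgds was at 70.3 against 78.9 and 35.1.

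Pre-granulosa genes stood beside the Sertoli genes in the 138 cells. Foxl2 was detected in 66 of the 138 (47.8%) and stood at 62.1 (53.4 to 71.9) CPM, against 0.529 and 0.475 in the XY WT members and 133 in the gated pre-granulosa cells of the same library, and 27 of the 138 also met the pre-granulosa gate. The other cells of the library stood at 27.6 CPM. At an equal depth of 5000 UMIs the share of these cells with Foxl2 was 18.3%, against 11.7% of the other cells and 3.70% of the endothelial-like cells of the library. Rspo1 had a UMI in 134 of them (97.1%) and stood at 399 against 19.1 and 28.8, Wnt4 at 366 against 38.9 and 54.9, and Runx1, which marks the supporting lineage before it divides by sex, at 234 against 29.1 and 58.6. These genes were also higher in the other cells of this library than in those of XY WT, Rspo1 at 217 against 35.9 and 40.9, Wnt4 at 246 against 19.9 and 47.7 and Runx1 at 104 against 16.5 and 36.1. Of 12 pre-granulosa markers, of which 10 passed the filter on low values, 9 were at least 2-fold higher than in both XY WT libraries, beside 6.90% of all genes. Dhh, Aard and Cst9 were detected together in 16 of the 138 (11.6%), and 21 lacked all 3, so the label of Sertoli cells holds for these cells only in part and they are named by the gate.

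Leaving out the 13 cells with high doublet scores left Rspo1 at 409 and Cst9 at 19.2. Those with no Foxl2 UMI had Rspo1 at 341, Wnt4 at 233 and Ptgds at 1298, with Cst9 at 18.5 and Dhh at 50.9. The 347 cells of the same library with Sox9 and no Amh had Dhh at 11.2, Aard at 54.5 and Foxl2 at 50.6. In the 10 members of replicate 2 Ptgds was at 304 and detected in 5 cells. Over all retained cells Ptgds was at 95.3 in replicate 1 and 13.0 in replicate 2. In the same 10 members Rspo1 was at 201 and Wnt4 at 476, Cst9 had 2 UMIs and Dhh none, and Foxl2 had a UMI in 3 cells.

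**Figure D5:**
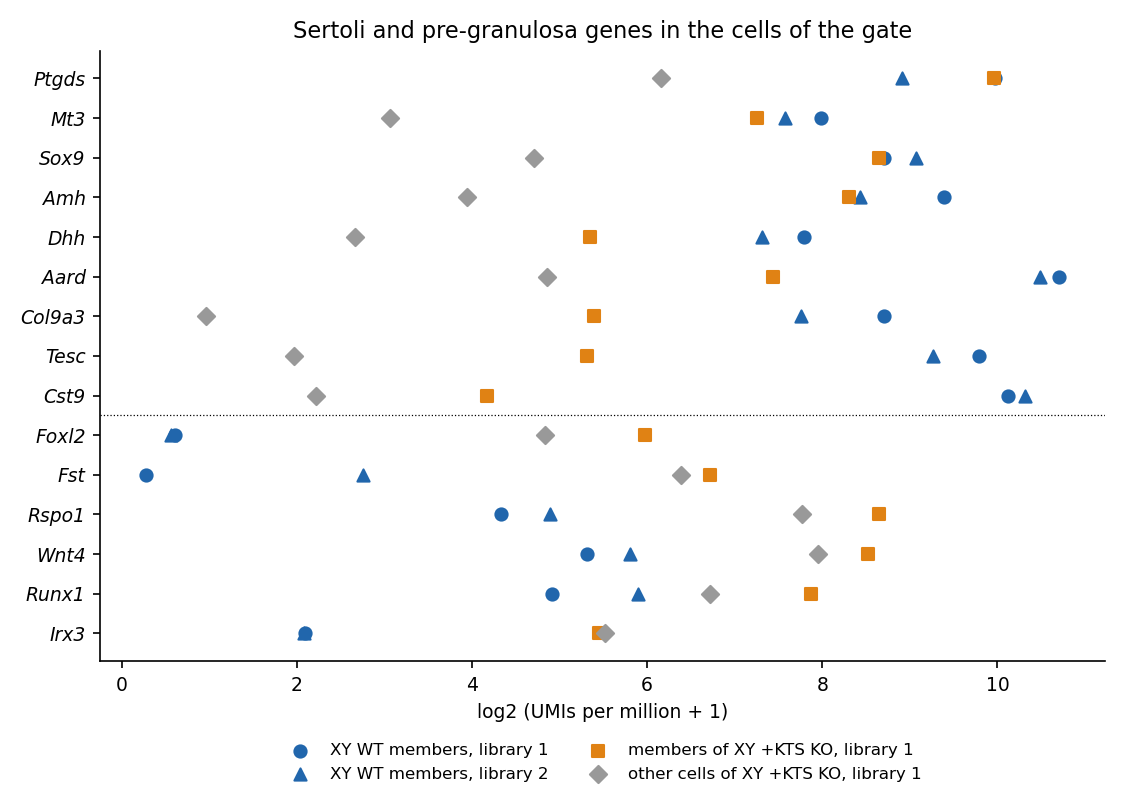
log2 of CPM plus 1 for 9 Sertoli and 6 pre-granulosa genes (above and below the dotted line) in the XY WT members (blue), the cells of XY +KTS KO replicate 1 that met the gate (orange squares) and the other cells of that library (grey). Ptgds and Sox9 of the orange cells overlap the blue points at 998 and 401 CPM, Cst9 lies far to their left at 17.1, and all 6 pre-granulosa genes lie to their right.

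Cell cycle genes were lower in these cells, 29 of 52 of the G2 and M phases and 10 of 40 of the S phase by at least 2-fold against both XY WT libraries, with none higher, beside 4.16% of all genes lower. Of these lists 37 and 31 genes passed the filter on low values. Cdk1 was at 24.6 against 250 and 182 and Top2a at 37.2 against 135 and 142, while the inhibitor Cdkn1c was at 1392 against 482 and 551. The other cells of that library moved the same way for Cdk1, at 106 against 245 and 185 in the other cells of XY WT, and for Cdkn1c, at 1046 against 440 and 502. Without the 13 cells of high doublet score Cdk1 stood at 11.8. Of 16 immediate early genes, of which 14 passed that filter, 11 were higher, beside 6.90% of all genes, with Fos at 810 against 65.9 and 49.5. Fos was also high in the other cells of that library, at 497, and low in the 10 members of replicate 2, at 40.2. The 9 erythroid genes summed to 8736 against 3148 and 1559, and to 5172 in the other cells of the library. The part of library quality in these differences was not tested.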

How the data were processed

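Per the labels, gonads were profiled by droplet-based 3′ single-cell RNA sequencing with Cell Ranger 6.0 on mm10. The deposited matrices hold counts of UMIs per gene and barcode, which the authors had not normalised. Barcodes were retained from 1000 detected genes upwards if mitochondrial UMIs did not exceed 10%. Summed UMIs were scaled to CPM. Descriptions within XY WT used a pseudocount of 5, a minimum of 20 CPM and a 2-fold difference in both libraries. Tests used edgeR 4.0.16 (R 4.3.3) with TMM scaling, and DESeq2 1.42.0 as an alternative. The statistical scripts were tested on simulated data. Scrublet (scanpy 1.11.5) scored doublets, and the top 0.8% per 1000 barcodes were marked in every library. Its own threshold called 716 and 581 barcodes in XY WT but at most 172 in any other library. Marked cells were kept and removed as an alternative. Genes named from the tests were those with the largest differences past the threshold, plus members of the fixed lists. Replicate numbers did not pair libraries (correlations of deviations from -0.145 to 0.0692). The members and the gene lists were chosen with earlier results of these data known, and the somatic-like comparator genes and other added alternatives after the data were seen. P-values measure only the spread between libraries. The intervals cover counting error only.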

Additional observations from a re-analysis of the deposited data

Results flagged for a closer look

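Cells with at least 2 Amh UMIs and fewer than 2 of Sox9 made up 4.27% of the retained cells of XX +KTS KO replicate 1 (409 of 9577) and 2.62% of replicate 2 (129 of 4933), against 0.0282% and 0.0277% of the XX WT libraries. They lie outside the members and stood above the level of the XX controls. The XY libraries held such cells too, 3.27% and 0.785% of XY WT and 3.40% and 2.87% of XY +KTS KO, so XY WT replicate 1 was above XX +KTS KO replicate 2. Cyp11a1 was at 345 and 407 CPM in these cells and Inha at 573 and 571, while Cst9 was at 60.8 and 42.8 and Dhh at 14.97 and 9.25. The same kind of cells in XY WT had Dhh at 249 and 153 and Cst9 at 1090 and 1228. Those of XY +KTS KO had Cyp11a1 at 123 and 292, Inha at 209 and 580, Cst9 at 8.74 and 57.2 and Dhh at 18.7 and 17.6. The cause was not tested.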

How the results depend on the processing

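The cause of each shift was not tested. Members in XY WT numbered 778 after thinning. In XY +KTS KO they numbered 398 with a minimum of 1 UMI of each gene, 86 with 3 and 28 after thinning. The mean share in XY WT became 17.3%, 8.82% and 4.90% in the same order. Raised genes numbered 190 over somatic-like cells and 379 to 419 with 1 library left out, and lower genes 295 with no filter on low values and 217 to 246. Against the cells with Sox9 and no Amh, 76 to 158 genes were raised with 1 library left out, and 62 were lower with a pseudocount of 1, 62 with no filter, 76 without doublets and 76 to 120 with 1 library left out. Against XX WT pre-granulosa cells 582 to 859 genes were higher and 488 to 792 lower with 1 replicate left out. Against XY +KTS KO 915 to 2620 were higher and 812 to 2367 lower, and DESeq2 gave 1363 lower and a fit on only 4 sums 1316. The replicate block gave 1868 higher and 1935 lower against XX WT and 1795 and 1714 against XY +KTS KO. Of the 68 and 69 named genes, for which alternatives were run gene by gene, no called gene reversed, and 1 and 6 uncalled genes did. Their log2 differences without replicate 1 and without replicate 2 were -0.25 and 0.94 for Cldn11 against XX WT, and against XY +KTS KO 0.15 and -0.51 for Wt1, -0.19 and 0.58 for Gadd45g, 0.14 and -0.63 for Inhbb, 0.78 and -0.14 for Nr5a1, 1.54 and -0.24 for Rhox8 and -1.64 and 0.033 for Inha. Among these reversed genes, Inha, Nr5a1 and Rhox8 passed against XY +KTS KO without replicate 1 and Inhbb without replicate 2. In these fits each lone library was assumed to vary like the other groups. Of 60 called named genes, 50 against XX WT and 48 of 60 against XY +KTS KO were called under every alternative run. No edgeR alternatives were run for the members of XY +KTS KO, which were not tested.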
